A study of Mus musculus with 8 samples.

Results

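AML12 cells, a mouse hepatocyte cell line, were cultured with or without irisin, and 10 genes that carry, sense or export iron in the liver were followed in their RNA. The genes were Hamp, Slc40a1, Bmp6, Hfe, Tfr2, Tmprss6, Tfrc, Slc11a2, Ireb2 and Aco1. Every probe whose accession is a transcript of one of them was taken, which gave 13 probes of the 39429 on the array and 10 genes of the 21612 that could be named. The control group held 4 samples cultured without irisin, and the irisin group held 4 samples given 0.5 µg/ml irisin for 24 h. Both groups were grown in the same medium with fetal bovine serum, and the labels name no added iron, iron chelator or BMP. Irisin is the secreted peptide cut from the membrane protein Fndc5. AML12 is a single line, made immortal from hepatocytes of mice that carry a transgene for human TGFα. Each sample was labeled with Cy3 and hybridized to its own array. The labels do not say whether the 4 samples of a group came from separate cultures, so that p-values measure the spread between these samples, which may be technical. The control samples were all on 1 slide and the irisin samples on another, and slide and treatment cannot be told apart.

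The liver sets the iron level of the body. Hepatocytes take up iron bound to transferrin, store it in ferritin and release it through ferroportin, the product of Slc40a1 and the only known iron exporter of animal cells. They also secrete hepcidin, the product of Hamp, a peptide hormone that binds ferroportin and causes its breakdown, so that less iron enters the blood. Hamp is transcribed in response to BMP ligands such as Bmp6, through SMAD proteins, and in response to interleukin-6, through STAT3. Inside the cell, the iron regulatory proteins encoded by Aco1 and Ireb2 bind hairpins in the mRNA of ferritin and of the transferrin receptor when iron is low.

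A gene is described here by the log2 of its background-subtracted signal minus the log2 of the array's 75th percentile, so that 0 is that percentile and each step of 1 is a doubling. Levels of different probes are not set against each other, since probes differ in how well they bind. A probe was called higher or lower when irisin and control differed at least 1.5-fold and the adjusted p was under 0.05. The 75th percentile itself was a signal of 372 to 534 on the control arrays and of 682 to 850 on the irisin arrays, and 59.5% to 64.1% of the probes of an array were well above background. The difference between the groups depended on brightness over the whole array. The 2409 tested probes of lowest mean signal, 3.18 to 10.8, had a median log2 change of -0.51, and 45.2% of them were called lower. Those with a mean signal of 22.4 to 49.8, where Hamp lies, had a median of -0.15 with 19.6% called lower and 0.747% called higher, and those of 115 to 277 had a median of 0.0021. The 643 probes with a mean signal of at least 40000, among them those of ferritin and transferrin, had a median of -0.36.

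The cells carried RNA of the hepatocyte markers examined and of most cholangiocyte markers. All 9 hepatocyte markers examined, among them Alb, Ttr, Apoa1 and Hnf4a, were well above background on all 8 arrays and none was called. Their summed signal was 223 to 253 times the 75th percentile in control and 204 to 229 times in irisin. Trf weighed most in this sum, with a mean log2 signal of 6.86 in control and 6.48 in irisin. Each sum is set only against the same sum in the other group, not against that of other markers. Apoa1 and Ahsg were dim, with signals of 49.9 to 131 before scaling. Of 5 endothelial markers, Pecam1 and Kdr were above background on all 8 arrays, Stab2 on 2 irisin arrays, and Cdh5 and Lyve1 on none. The sum over the 5 was 0.701 to 0.788 in control and 0.413 to 0.584 in irisin. Of 5 Kupffer cell or macrophage markers, Cd68, Csf1r and Marco were above background throughout. Adgre1 was above it on 2 control arrays and 1 irisin array, and Clec4f on 3 control arrays and 0 irisin arrays. The sum over the 5 was 0.546 to 0.647 in control and 0.460 to 0.547 in irisin. Of 5 stellate cell or fibroblast markers only Col1a1 was above background, and Des, Lrat, Pdgfrb and Reln were not on any array, with sums of 0.0334 to 0.0430 and 0.0310 to 0.0385. Of 4 erythroid markers only Hba-a1 was above background, with sums of 0.0297 to 0.0343 and 0.0200 to 0.0258. The cholangiocyte markers Krt19, Krt7 and Sox9 were above background on all arrays and Epcam on 2, with sums of 42.5 to 50.3 in control and 41.1 to 48.0 in irisin. Pecam1 and Marco were called lower, on dim probes with signals of 16.6 to 27.0 and 6.2 to 13.9. In the brightness ranges of these probes 34.3% and 45.2% of tested probes were called lower. On brighter probes Kdr was at a log2 change of -0.56 and Csf1r at -0.49, both under 1.5-fold, and Cd68 was at 0.0062. The part of Pecam1 and Marco in the results on iron genes was not tested.

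None of the 10 iron genes was called in either direction. Of the 10 genes 9 passed the filter on low signal and could be tested, and Bmp6 did not. By comparison, 0.714% of all tested probes were called higher and 11.7% were called lower. By limma without the fold limit, 1 member gene was higher at an adjusted p under 0.05, which was Hamp, and none was lower, where the background is 2.96% higher and 21.6% lower. At an unadjusted p under 0.05 there were 2 higher, Hamp and Ireb2, and 0 lower, against 6.45% and 27.8% of all tested probes. The test named in the study's methods with the 1.5-fold limit also called 0 members, against 0.450% of probes higher and 10.8% lower. The irisin arrays lay wholly above the control arrays for 1 of the 9 genes and wholly below for 0, against 4.18% and 23.0% of all probes measured on every array. The median log2 change of the 9 genes was -0.0059, and that of all tested probes was -0.080. Counted by the brightest probe as the members are, 76 of 14312 named genes were called higher and 1461 lower. By limma at an adjusted p alone there were 379 and 2564 of them, and at an unadjusted p under 0.05 there were 850 and 3372. The median log2 change of the named genes was -0.064. In bulk RNA, fewer cells that carry a transcript and less of it per cell cannot be told apart.

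**Figure D1:**
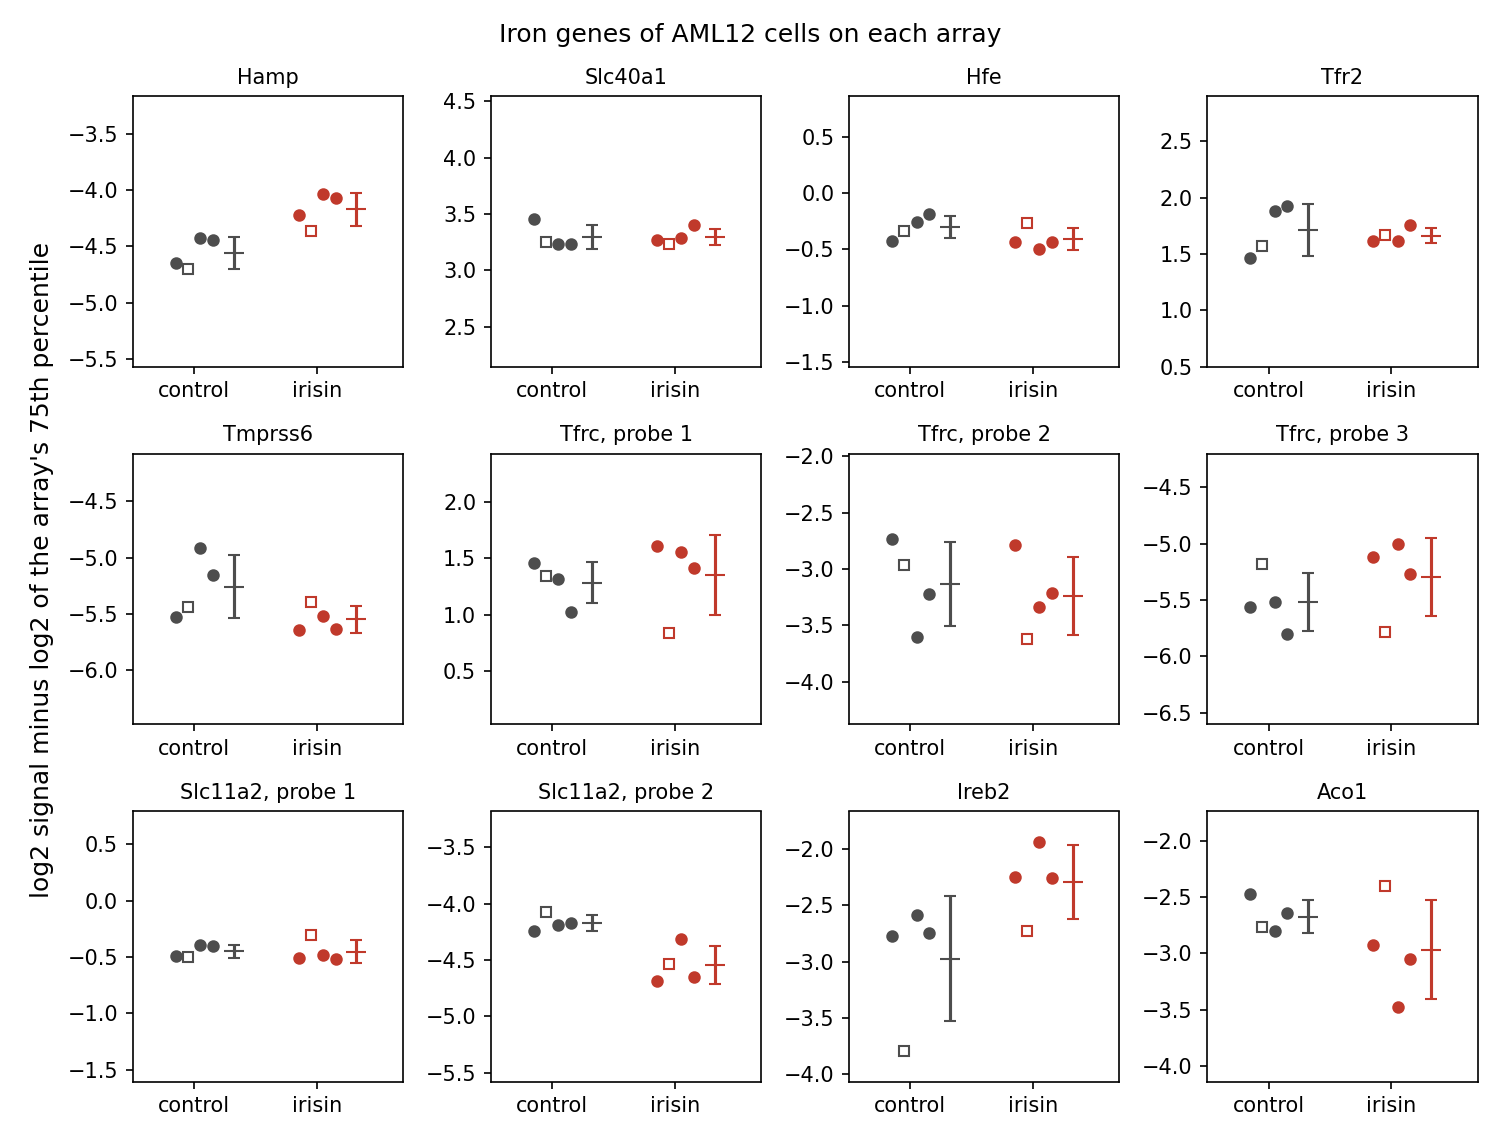
Log2 signal minus log2 of the array's 75th percentile (vertical axis, with the same span in every panel) for the 12 tested probes of the iron genes, with 1 point per array, open squares for replicate 2 of each group and mean ± SD (n = 4) to the right of the points. Only Hamp and probe 2 of Slc11a2 have groups that do not overlap, Hamp from -4.70 to -4.43 in control and from -4.36 to -4.04 in irisin.

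Hamp, the gene of the hormone hepcidin, was the member with the clearest difference, and it was small. Its log2 signal on the 4 control arrays was -4.65, -4.70, -4.43 and -4.44. On the 4 irisin arrays it was -4.22, -4.36, -4.04 and -4.07. Every irisin array was above every control array. The log2 change was 0.38 ± 0.10 (SE, n = 4 per group), which is 1.31-fold with a 95% interval of 1.11 to 1.53, and the adjusted p was 0.0201. An exact two-sided permutation test over the 70 assignments of the arrays gave 0.0286, the smallest p it can give. The probe was well above background on all 8 arrays but dim, with signals of 14.8 to 24.8 in control and 33.1 to 50.6 in irisin before scaling. The direction turned with a normexp correction, which adds an offset of 50 to every spot. The log2 change was then -0.26 with an adjusted p of 0.0194. That offset is larger than the signal of this probe on every array but irisin replicate 4, and its part in the turn was not tested. With quantile normalization the log2 change was 0.63 and with cyclic loess 0.66, both past the 1.5-fold limit. Leaving out single arrays gave changes of 0.34 to 0.45, with adjusted p of 0.00785 to 0.0662.

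Mice have a second hepcidin gene, Hamp2, next to Hamp, and the upstream sequences of the pair are shown because they hold, or differ in, the letters of response elements known from hepcidin genes. These are the 250 bases before the annotated start of each gene, from the RefSeq promoters of GRCm38.p6, 5′ to 3′ on the minus strand of chromosome 7, at chr7:30944030-30944279 for Hamp and chr7:30924182-30924431 for Hamp2. The capitals mark GGCGCC, the letters of the core of the BMP-responsive element, and TTCNNNGAA, those of a STAT site, each searched on both strands.
Hamp: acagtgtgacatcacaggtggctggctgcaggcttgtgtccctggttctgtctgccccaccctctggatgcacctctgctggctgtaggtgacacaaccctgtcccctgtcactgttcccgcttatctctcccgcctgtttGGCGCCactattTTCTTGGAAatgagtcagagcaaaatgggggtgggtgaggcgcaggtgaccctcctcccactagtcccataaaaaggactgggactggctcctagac
Hamp2: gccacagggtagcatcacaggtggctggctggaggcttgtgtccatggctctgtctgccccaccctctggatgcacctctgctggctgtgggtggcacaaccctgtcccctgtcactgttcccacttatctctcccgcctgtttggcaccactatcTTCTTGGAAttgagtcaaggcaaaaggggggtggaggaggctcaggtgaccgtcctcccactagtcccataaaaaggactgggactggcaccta
The stretches aligned over 247 bases with 227 identical, an identity of 91.9%. Hamp held GGCGCC at bases 142 to 147 and TTCNNNGAA at bases 154 to 162, counted from the first base printed, and the motifs did not overlap. Hamp2 kept TTCNNNGAA at bases 157 to 165 and had no GGCGCC, with the substitution G145A (the base of Hamp, its position in Hamp, the base of Hamp2) inside the motif. In the same window GGCGCC occurred in 9.59% of 32851 RefSeq promoters, TTCNNNGAA in 7.02% and both in 0.368%. Promoter entries were found for 7 of the 10 genes, 10 in all, and among them GGCGCC occurred in Hamp and in 1 entry of Tfrc, at bases 162 to 167, and TTCNNNGAA in Hamp alone. A match is a description of the letters and not of a protein bound there.

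The probe of Hamp2 moved the other way on these arrays. Its log2 signal was -5.82, -6.09, -6.02 and -5.56 in control and -7.27, -5.79, -6.99 and -6.91 in irisin. Irisin replicate 2 lay among the control arrays, and the other irisin arrays were lower. Hamp2 was called lower, with a log2 change of -0.87 ± 0.27 (SE, n = 4 per group) and an adjusted p of 0.0417, and it was well above background on 3 of the 4 irisin arrays. Its signals before scaling were 5.1 to 12.4, in the range where 45.2% of probes were called lower. The call was lost with quantile normalization (-0.33, adjusted p 0.427), cyclic loess, spike-in scaling, no scaling (-0.13, adjusted p 0.577) and the test of the study's methods, at a 2-fold limit, and on leaving out any 1 array other than irisin replicate 2, without which the change was -1.19 with an adjusted p of 0.000538. The RNAs of Hamp and Hamp2 are close in sequence, and whether each probe binds only its own RNA was not tested.

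Slc40a1, the gene of the exporter ferroportin, differed between the groups by less than the spread between arrays. Its log2 signal was 3.45, 3.25, 3.24 and 3.24 in control and 3.27, 3.23, 3.29 and 3.40 in irisin. The groups overlapped fully, and the change was 0.00054 ± 0.085 (SE, n = 4 per group) with an adjusted p of 0.998. The 95% interval ran from 0.878-fold to 1.14-fold, so that a change of 1.5-fold in either direction lies outside it at this scaling. The other genes of iron export and oxidation gave few values. Of 5 such genes 2 were tested and 0 were called, and Cp, the ferroxidase ceruloplasmin, had a log2 change of -0.28 with an adjusted p of 0.274.

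The genes that inform the hepatocyte of body iron did not pass the test. Bmp6 encodes the ligand that drives hepcidin, and it is made in liver mostly by sinusoidal endothelial cells. It was not well above background on any of the 8 arrays, nor was Hjv, the co-receptor hemojuvelin, and no change is given for them. Hfe, the hemochromatosis protein, and Tfr2, a transferrin receptor that signals rather than carries iron, act at the hepatocyte surface and were both well above background on all arrays. The log2 signal of Hfe was -0.42, -0.33, -0.26 and -0.19 in control and -0.43, -0.26, -0.50 and -0.43 in irisin, a change of -0.11 (95% interval -0.30 to 0.089, adjusted p 0.451). That of Tfr2 was 1.47, 1.58, 1.89 and 1.93 in control and 1.62, 1.67, 1.61 and 1.76 in irisin, a change of -0.050 (-0.30 to 0.20, adjusted p 0.812). The irisin arrays of Tfr2 lay inside the range of the control arrays, which was the wider of the 2 groups, with an SD of 0.23 against 0.066.

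Tmprss6 encodes matriptase-2, a membrane protease that lowers hepcidin by cutting hemojuvelin. Its log2 signal was -5.53, -5.43, -4.91 and -5.15 in control and -5.64, -5.39, -5.52 and -5.63 in irisin. The groups overlapped at their edges, and the change was -0.29 ± 0.13 (SE, n = 4 per group) with an adjusted p of 0.157. The probe was dim, with signals of 8.1 to 17.7 and a mean signal in the range of 10.8 to 22.4, where probes had a median change of -0.33 and 34.3% were called lower. With normexp Tmprss6 was called lower, at -0.61 with an adjusted p of 6.18e-05, as were 15.3% of all tested probes, while with quantile normalization its change was 0.091.

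The rest of the pathway upstream of Hamp was measured for comparison. Of 15 genes of BMP and hemojuvelin signaling 13 were tested and 0 were called by their brightest probes, with a median log2 change of 0.066. Of all tested probes, 0.714% were called higher and 11.7% lower, and by the adjusted p alone 2.96% and 21.6%. Of the 13 genes, 1 was higher and 1 lower by the adjusted p alone, both under 1.5-fold. They were Smad1, a transducer of BMP signals, at 0.46 with an adjusted p of 0.00460 on its brighter probe and at -0.22 with an adjusted p of 0.176 on a second one, and Furin, a protease that processes hepcidin and hemojuvelin, at -0.53 with an adjusted p of 0.00533. Both were chosen after their values were seen, as were second, dimmer probes of the receptor genes Acvr2a and Acvr1. That of Acvr2a was called higher, at 1.18 with an adjusted p of 0.0217. It had signals of 2.2 to 28.9 and was well above background on 2 of the 4 control arrays. That of Acvr1 was at 0.47 with an adjusted p of 0.00304, under 1.5-fold. The brighter probes of Acvr2a and Acvr1 were at 0.20 and 0.038, with adjusted p of 0.595 and 0.847. Of 6 targets and inhibitors of the pathway 6 were tested and 0 were called. Id1, which is transcribed in response to BMP as Hamp is, had log2 signals of 5.74, 5.43, 5.28 and 5.50 in control and 5.14, 5.28, 4.95 and 5.09 in irisin. This is a change of -0.37 ± 0.11 (SE, n = 4 per group) with an adjusted p of 0.0357, under 1.5-fold, and the groups overlapped, irisin replicate 2 and control replicate 3 both being at 5.28. Smad7, an inhibitory SMAD, was at -0.34 with an adjusted p of 0.0635. The probe of Id1 was among the 2410 tested probes of highest mean signal, whose median log2 change was -0.20. At this scaling the fitted change of Hamp was opposite in sign to that of Id1 and Smad7. The 6 genes of the inflammatory input to Hamp, among them Il6ra, Il6st, Stat3 and Socs3, were all tested and 0 were called. On their brightest probes the changes lay between -0.033 and 0.031 with adjusted p of at least 0.859. The 95% interval of Stat3 was wide, from -0.41 to 0.42. A second, dimmer probe of Stat3 was at -0.58 with an adjusted p of 0.0821.

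Tfrc encodes the transferrin receptor through which cells take up most of their iron, and it was read by 3 probes, of which probe 1 was printed in 10 spots on each array. Probe 1 had log2 signals of 1.46, 1.34, 1.32 and 1.03 in control and 1.61, 0.84, 1.55 and 1.41 in irisin. Irisin replicate 2 was below every other array, and the other irisin arrays reached from within the control range to above it. The change was 0.070 ± 0.17 (SE, n = 4 per group) with a 95% interval of 0.812-fold to 1.36-fold and an adjusted p of 0.822. Without irisin replicate 2 it was 0.24 with an adjusted p of 0.135. The 8 to 10 spots kept on an array had a coefficient of variation of 2.02% to 5.49%, and the mean signal before scaling was 1221 on irisin replicate 2 against 2265 to 2436 on the other irisin arrays. That array was the lowest of its group for 4 and the highest for 4 of the 9 tested member genes, against 23.4% and 47.4% of all tested probes.

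**Figure D2:**
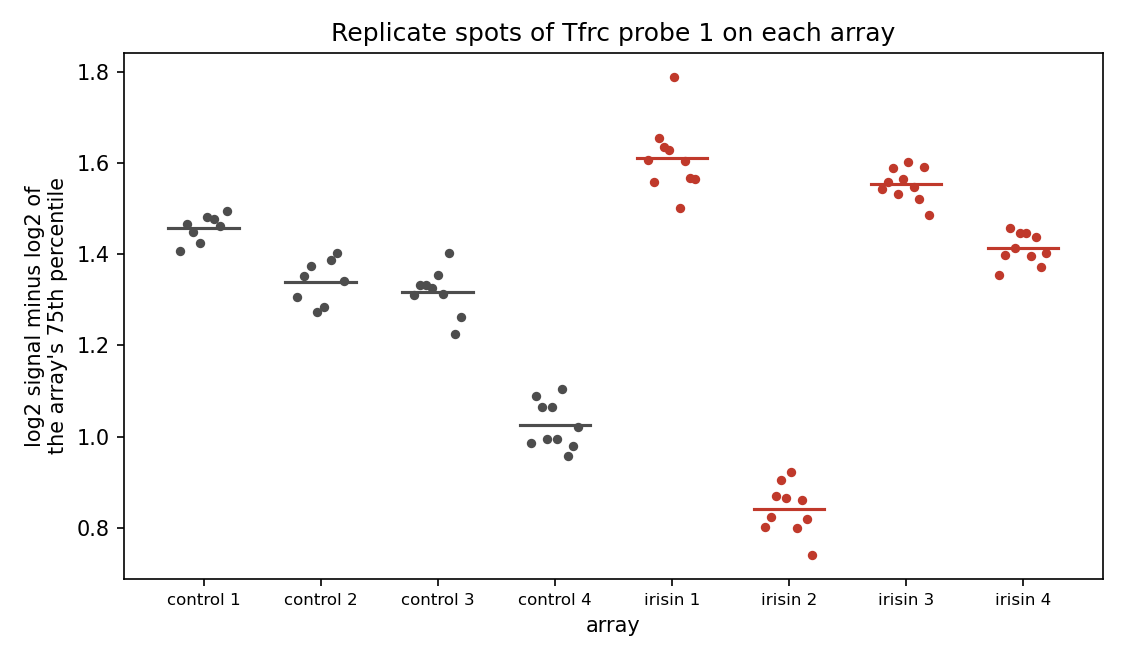
Log2 signal minus log2 of the array's 75th percentile (vertical axis) for each kept spot of probe 1 of Tfrc on the 8 arrays (horizontal axis), with a line at the mean of the spots. The 8 to 10 spots of an array lie close together, while the array means run from 0.84 on irisin replicate 2 to 1.61 on irisin replicate 1.

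The other probes of Tfrc were dimmer and gave no call. Probe 2 had log2 signals of -2.74, -2.97, -3.61 and -3.22 in control and -2.79, -3.62, -3.34 and -3.21 in irisin, a change of -0.11 with an adjusted p of 0.771. Probe 3 had -5.56, -5.18, -5.52 and -5.81 in control and -5.12, -5.79, -5.00 and -5.27 in irisin, a change of 0.22 with an adjusted p of 0.431. On all 3 probes irisin replicate 2 was the lowest irisin array. The gaps between the 3 pairs of probes differed between irisin and control by -0.33 to 0.18, with p of 0.229 to 0.4 before adjustment in an exact two-sided permutation test.

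Slc11a2 encodes DMT1, which carries iron across the endosomal membrane, and its 2 probes gave different pictures. Probe 1 had log2 signals of -0.49, -0.50, -0.39 and -0.40 in control and -0.51, -0.30, -0.48 and -0.51 in irisin. The change was -0.0059 with a 95% interval of 0.878-fold to 1.13-fold and an adjusted p of 0.973. Probe 2 had -4.25, -4.08, -4.19 and -4.17 in control and -4.69, -4.53, -4.31 and -4.65 in irisin. All irisin arrays were below all control arrays, and the change was -0.38 ± 0.10 (SE, n = 4 per group), 1.30-fold lower with an adjusted p of 0.0169, under the 1.5-fold limit. Signals of probe 2 were 19.6 to 40.5, and with quantile normalization its change was -0.14 with an adjusted p of 0.344, while with normexp it was -0.59 with an adjusted p of 8.54e-05, past the 1.5-fold limit. The gap between the probes differed between the groups by 0.37, with an exact permutation p of 0.0286, the smallest possible, and 0.114 after adjustment over 4 pairs of probes of Slc11a2 and Tfrc. Probe 2 was among the probes with a mean signal of 22.4 to 49.8, which had a median log2 change of -0.15. Probe 1 was among those of 273 to 653, with a median of 0.0021. The part of this trend with brightness in the gap was not tested. The gene gives rise to mRNAs with different ends, and which of them each probe reads was not analysed here.

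Other genes of transferrin iron uptake were tested in 9 of 10 cases, with 0 called higher, 1 called lower and a median log2 change of -0.067. Of all tested probes, 0.714% were called higher and 11.7% lower. Trf, transferrin itself and a major product of hepatocytes, had log2 signals of 7.02, 6.73, 6.77 and 6.93 in control and 6.37, 6.70, 6.47 and 6.36 in irisin. The groups did not overlap, and the change was -0.39 ± 0.10 (SE, n = 4 per group), 1.31-fold lower with an adjusted p of 0.0204, on a probe among those with a signal of at least 40000. A second probe of Trf gave -0.16 with an adjusted p of 0.335, and quantile normalization moved the first to -0.019. Steap3, the endosomal ferrireductase, was at -0.067 and Slc39a14, a carrier of iron that is not bound to transferrin, at -0.019, with adjusted p of 0.775 and 0.920, and a second, dimmer probe of Steap3 was at -0.43 with an adjusted p of 0.0330. The gene called lower was Scara5, a receptor for ferritin, at -0.71 with an adjusted p of 0.00194. It was read by a dim probe with signals of 6.8 to 10.9 and was at -0.20 with quantile normalization.

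Of the iron regulatory proteins, Ireb2 had the largest fitted change among the 12 tested member probes and did not pass the test. Its log2 signal was -2.77, -3.80, -2.58 and -2.75 in control and -2.25, -2.73, -1.94 and -2.25 in irisin. Replicate 2 was the lowest array of each group, and irisin replicate 2 lay within the control range while the other irisin arrays lay above it. The change was 0.68 ± 0.25 (SE, n = 4 per group), which is a fold of 1.6 with a 95% interval of 1.09 to 2.37, and the adjusted p was 0.0793. The exact two-sided permutation p was 0.0571. Without irisin replicate 2 the change was 0.83 and was called with an adjusted p of 0.0422, and without control replicate 2 it was 0.41 with an adjusted p of 0.120. With normexp it was 0.22 with an adjusted p of 0.185.

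Aco1, the iron regulatory protein that is an aconitase when it holds an iron-sulfur cluster, gave no call. Its log2 signal was -2.47, -2.77, -2.80 and -2.64 in control and -2.93, -2.40, -3.48 and -3.05 in irisin. The irisin arrays spread on both sides of the control arrays, with an SD of 0.44 against 0.15. The change was -0.29 ± 0.19 (SE, n = 4 per group) with an adjusted p of 0.325. Without irisin replicate 2 it was -0.48 with an adjusted p of 0.0293, and without irisin replicate 3 it was -0.12 with an adjusted p of 0.701. Fbxl5, the ubiquitin ligase subunit that senses iron and marks Ireb2 protein for breakdown, had log2 signals of 1.31, 1.39, 1.22 and 1.32 in control and 1.61, 1.71, 1.73 and 1.71 in irisin. Every irisin array was above every control array, and the change was 0.38 ± 0.077 (SE, n = 4 per group), 1.30-fold with an adjusted p of 0.00410, under the 1.5-fold limit. Of the 3 genes of this group beside the members, all 3 were tested, 0 were called, and Fbxl5 was the only one past the adjusted p alone. At that limit 2.96% of all tested probes were higher.

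**Figure D3:**
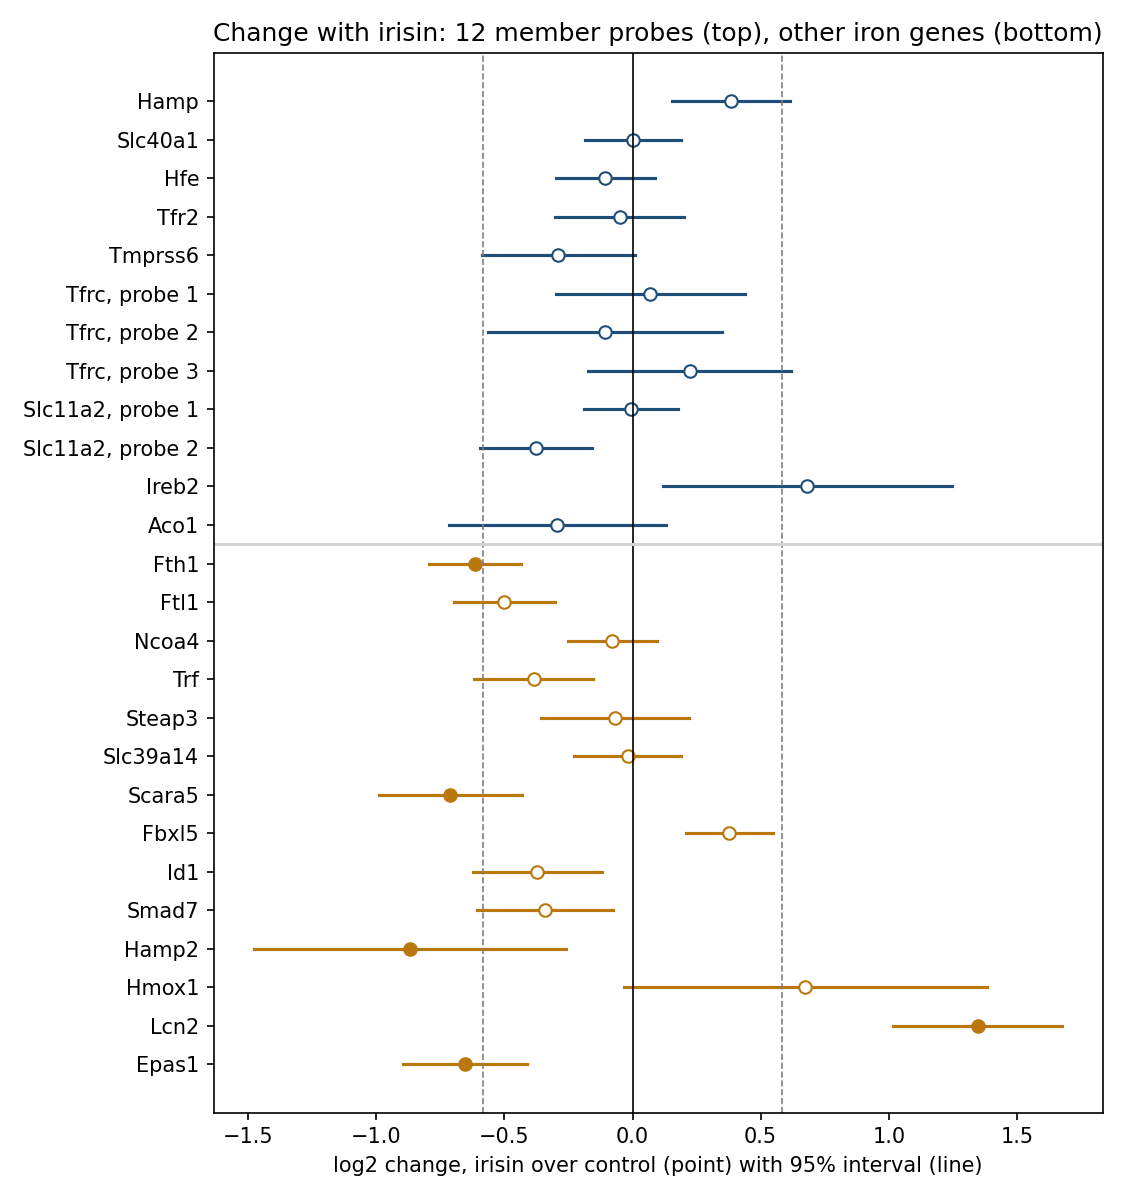
Log2 change from control to irisin (horizontal axis, point) with its 95% interval (line) for the 12 tested member probes above the grey line and 14 other iron genes below it, where filled points were called and dashed lines mark 1.5-fold. No member is called, the interval of Slc40a1 lies within 1.5-fold, and Fth1, Scara5, Hamp2 and Epas1 are called lower and Lcn2 higher.

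Of the ferritin genes, whose mRNAs the iron regulatory proteins hold back, Fth1 was called lower and Ftl1 was not. Fth1, the heavy chain, had log2 signals of 7.21, 7.10, 7.10 and 7.06 in control and 6.53, 6.62, 6.43 and 6.42 in irisin. The groups did not overlap, and the gene was called lower with a change of -0.61 ± 0.081 (SE, n = 4 per group), 1.53-fold, and an adjusted p of 0.000387. Ftl1, the light chain, was at -0.50 ± 0.089 on its brighter probe, 1.41-fold lower with an adjusted p of 0.00196, and at -0.11 with an adjusted p of 0.432 on a second probe. Before scaling, the signals of Fth1 were 54859 to 73146 in control and 67206 to 73520 in irisin, a log2 change of 0.12, with no spot marked as saturated. In the group of bright probes to which Fth1 belongs, the median change was -0.36 and 2.80% were called lower. Fth1 was no longer called with quantile normalization, at -0.24 with an adjusted p of 0.0319, nor with cyclic loess, spike-in scaling, no scaling or normexp, nor without control replicate 1, at -0.58. Ferritin genes have many processed copies in the mouse genome, which a probe may also read. Of 6 genes of storage and of the release of iron from ferritin, 5 were tested, 0 were called higher and 1 lower. The shares of all tested probes were 0.714% and 11.7%. Ncoa4, the receptor that carries ferritin to lysosomes, was at -0.079 with an adjusted p of 0.539.

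Over all 77 other iron genes, 69 were tested. By their brightest probes 1 was called higher and 4 lower, against 76 and 1461 of the 14312 named genes tested. The gene called higher was Lcn2, and those called lower were Scara5, Fth1, Hamp2 and Epas1. At an adjusted p alone there were 3 higher and 9 lower, against 379 and 2564 of the named genes, and the median log2 change was -0.035. These counts depended on the scaling between arrays. Scaling to spike-in probes moved the median change of all tested probes from -0.080 to 0.49, and no scaling moved it to 0.66, while quantile normalization and cyclic loess left it at 0.0095 and 0.015. Relative to that median, Ireb2 stood between 0.74 and 0.76, Hamp between 0.46 and 0.65 and Slc40a1 between 0.048 and 0.081 under the 6 scalings. Tmprss6 stood between -0.21 and 0.11 and Tfr2 between -0.068 and 0.031, changing sign. Fth1 stayed below it, between -0.53 and -0.24.

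**Figure D4:**
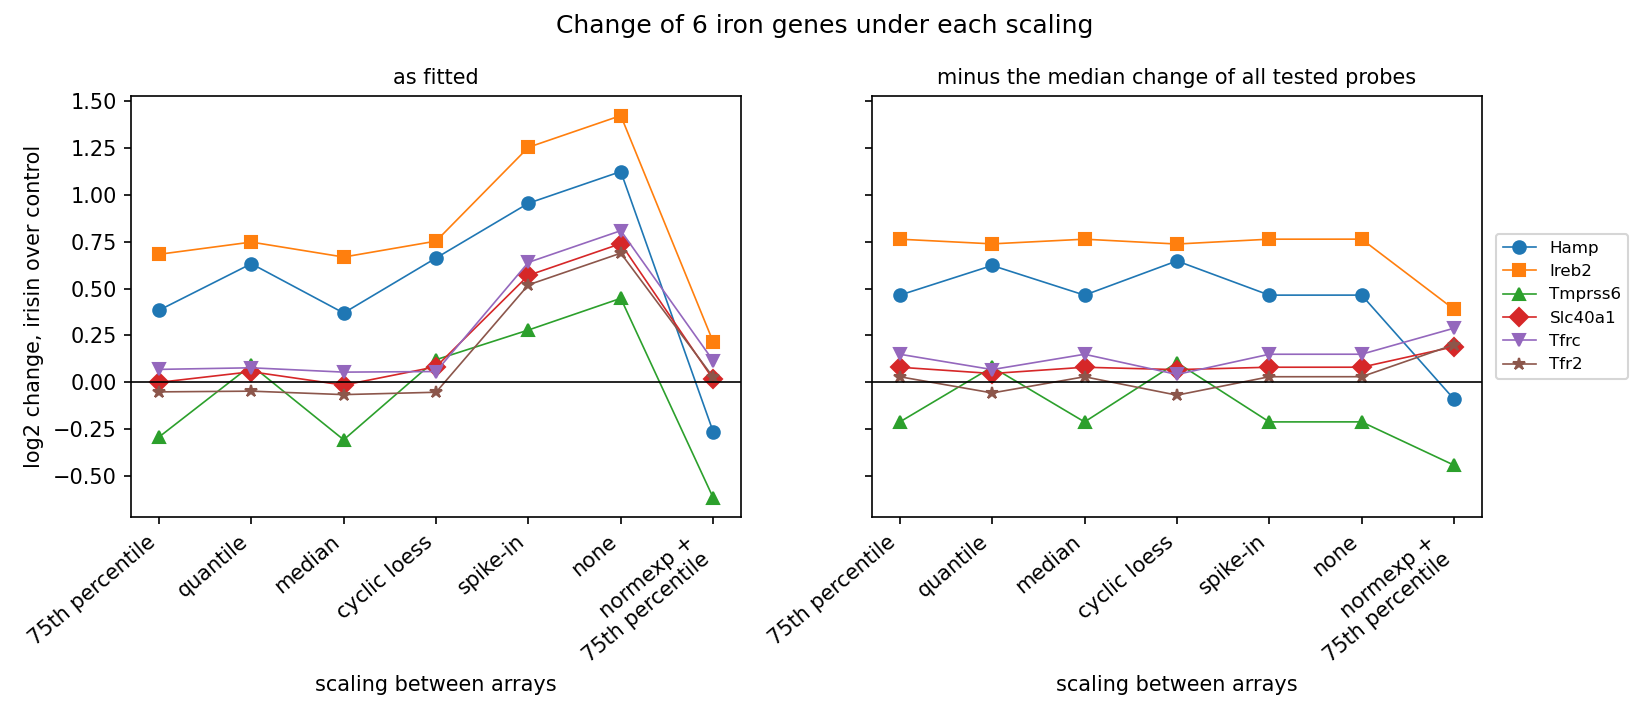
Log2 change from control to irisin (vertical axis) of 6 iron genes under 6 ways of scaling the arrays and with normexp background correction (horizontal axis), as fitted on the left and minus the median change of all tested probes on the right, with lines joining the values of 1 gene only to guide the eye. Hamp and Ireb2 keep above the other genes under the 6 scalings, and with normexp Hamp is at -0.26 as fitted. Scalings other than quantile and cyclic loess keep the gaps between genes by construction.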

How the data were processed

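RNA of AML12 cells, 4 control and 4 irisin samples, was grouped by the deposited labels. The authors labeled it with Cy3, hybridized it to one-color Agilent mouse arrays and ran Feature Extraction (version 12 per the labels), which subtracts background, corrects spatial trends and models error. The deposited values are signal intensity on a linear scale, not normalized between arrays, both in the scanner output and in a value table, and the study's methods name no normalization between arrays.

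Control spots were dropped, as were those marked as outliers, spots of a probe were averaged, and the log2 of the array's 75th percentile was subtracted from the log2 signal. Accessions were named through the RefSeq table of GRCm38.p6 (28663 of 39429 probes). The 24093 probes that were well above background throughout the control group, the irisin group or both were tested with limma 3.58.1 (lmFit, eBayes) in R 4.3.3, with Benjamini-Hochberg adjustment over all of them. For a gene with several probes the one with the highest mean signal counted. The fit was tested on simulated data. Sequences and motifs were handled with Biopython 1.88 in Python 3.11.15.

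The members and lists were chosen with earlier results of these data known. Named were all members with every probe, called genes of the other iron list, Hamp2, and Fth1, Ftl1, Trf, Hjv, Fbxl5, Ncoa4, Steap3, Slc39a14, Hmox1, Smad7 and Id1 whatever they showed. The alternatives were other scalings, normexp (offset 50, on the median spot signal), the value table, other filters, marked spots kept, an intensity trend, the replicate number as a block, the methods' ANOVA, other thresholds, the mean over probes and each array left out in turn. In normexp, local backgrounds marked as non-uniform (at most 40 spots per array) were replaced by the array's median, which was chosen after seeing the data. The number of arrays limits the precision.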

Additional observations from a re-analysis of the deposited data

Results flagged for a closer look

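In 3 of 52 groups of 4 arrays examined for the member probes and the named iron genes, 1 array stood apart from the others by Dixon's criterion, which chance alone gives in about 1 of 20 groups. Slc40a1 on control replicate 1 was at a log2 signal of 3.45, with the other control arrays at 3.24 to 3.25. Probe 1 of Slc11a2 on irisin replicate 2 was at -0.30, with the other irisin arrays at -0.51 to -0.48. Ireb2 on control replicate 2 was at -3.80, with the other control arrays at -2.77 to -2.58, a signal of 35.0 before scaling.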

How the results depend on the processing

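Of the members, 0 were called higher and 0 lower in the main fit. This changed with the alternatives listed next, most of the other scalings among them, and was kept by the rest. The count of members called higher was 1 with quantile normalization, 1 with cyclic loess, 3 with spike-in scaling, 7 with no scaling, 1 with the replicate block, 1 with the adjusted p alone, and 0 to 1 on leaving out each array. The count called lower was 1 with normexp. Of all tested probes, 2.78%, 2.87%, 31.2% and 61.9% were called higher under these 4 settings in the order quantile, cyclic loess, spike-in and none, and 15.3% were called lower with normexp. The other iron genes called higher, 1 in all, were 24 with spike-in scaling, 54 with no scaling, 2 with normexp, 3 with the adjusted p alone, and 1 to 3 on leaving out each array. Those called lower, 4 in all, were 1 with quantile normalization, 1 with cyclic loess, 0 with spike-in scaling, 0 with no scaling, 2 with normexp, 9 with no filter on dim probes, 9 with the adjusted p alone, 0 at 2-fold, and 2 to 6 on leaving out each array. Fewer genes pass a 2-fold limit and more enter without the filter by construction, and otherwise the cause was not tested.

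Spike-in scaling moved the median of all probes to 0.49 and no scaling to 0.66, and these log2 changes turned to positive with them, given in that order. They were Hfe at 0.46 and 0.63, Tfr2 at 0.52 and 0.69, Tmprss6 at 0.28 and 0.45, probe 2 of Tfrc at 0.46 and 0.63, Slc11a2 at 0.56 and 0.73 and its probe 2 at 0.19 and 0.36, Aco1 at 0.28 and 0.44, Trf at 0.18 and 0.35, Steap3 at 0.50 and 0.67, Slc39a14 at 0.55 and 0.72, Ftl1 at 0.070 and 0.24, Ncoa4 at 0.49 and 0.66, Smad7 at 0.23 and 0.40, and Id1 at 0.20 and 0.37. With no scaling alone Scara5 turned to 0.028, Fth1 to 0.12 and Epas1 to 0.086. With normexp Hamp turned to -0.26, Tfr2 to 0.028, probe 3 of Tfrc to -0.51, Steap3 to 0.026 and Slc39a14 to 0.11. With quantile normalization Tmprss6 turned to 0.091, probe 2 of Tfrc to 0.0025 and Ncoa4 to 0.024, and with cyclic loess they turned to 0.12, 0.024 and 0.060. With the median of detected probes Slc40a1 turned to -0.014. On leaving out each array, the changes near 0 crossed it, Slc40a1 from -0.034 to 0.053, Tfr2 from -0.13 to 0.022, Tfrc from -0.017 to 0.24 and its probe 2 from -0.27 to 0.025, Slc11a2 from -0.056 to 0.014, Steap3 from -0.16 to 0.053 and Slc39a14 from -0.072 to 0.025.

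The replicate numbers did not pair the samples. The deviations of same-numbered arrays correlated at 0.11, -0.35, -0.13 and 0.17, and 2 of the 4 numbers matched best with themselves. With the replicate block the member called was Ireb2, at 0.68 with an adjusted p of 0.00407, and the count of all probes called higher was 173 against 172. Dim probes limit Hamp, Hamp2, Tmprss6 and Scara5, whose signals before scaling were 5.1 to 50.6.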

Other observations

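Of 11 genes of heme and siderophore handling 10 were tested, 1 was called higher and 0 lower, against 0.714% and 11.7% of all tested probes. Lcn2, the siderophore-binding protein lipocalin 2, which is also an acute-phase protein, rose. Its log2 signal was 0.53, 0.56, 1.15 and 0.97 in control and 1.99, 2.13, 2.11 and 2.36 in irisin. The change was 1.35 ± 0.15 (SE, n = 4 per group), 2.54-fold with an adjusted p of 0.000169, and it was called under all alternatives tried, with changes of 1.25 to 2.09. Slc22a17, a receptor for lipocalin 2 chosen after its values were seen, was at -0.54 with an adjusted p of 0.00979, under 1.5-fold, on a dim probe with signals of at most 20.5.

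Hmox1, the enzyme that frees iron from heme, had log2 signals of 0.70, 0.36, 0.42 and 0.78 in control and 0.21, 2.08, 1.54 and 1.11 in irisin. Irisin replicate 1 was below all control arrays and the other irisin arrays were above them. The change was 0.67 ± 0.32 (SE, n = 4 per group) with an adjusted p of 0.166, a second probe was at 0.27 with an adjusted p of 0.341, and without irisin replicate 1 it was 1.02 with an adjusted p of 0.00655. Of the 3 genes of the hypoxia arm of iron control, Epas1, the hypoxia-inducible factor HIF-2α, was called lower at -0.65 with an adjusted p of 0.00137. Its other 2 probes were at 0.14 and 0.055 with adjusted p of 0.260 and 0.773, so that its probes disagree.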
